A study of Homo sapiens with 30 samples.

Results

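The 10 genes described here belong to the bone morphogenetic protein (BMP) and SMAD response, followed in HepG2 cells exposed to herbal extracts. They are the iron hormone gene HAMP, the inhibitors of DNA binding ID1, ID2, ID3 and ID4, the SMAD genes SMAD6, SMAD7 and SMAD9, the pseudoreceptor gene BAMBI and the ligand gene BMP4. The list was chosen by the responses of such genes to the high against the low dose in these same libraries, and its members were found by symbol among the 60675 rows of the deposited table. Of the 10 genes, 9 passed the filter on low counts, which left 16083 genes to test; ID4 did not pass.

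HepG2 is a human hepatocellular carcinoma line, and each library held RNA from such cells after 24 h of exposure. The extracts were ethanol extracts of 4 Korean herbal formulas, given at 20, 100 or 500 µg/mL, called the low, medium and high dose. Samul-tang and Sagunja-tang are traditional blood- and energy-tonifying formulas, Palmul-tang combines the herbs of both, and Sibjeondaebo-tang adds further herbs to Palmul-tang. At every dose there were 3 libraries for Palmul-tang, 3 for Sibjeondaebo-tang, 2 for Samul-tang (replicates 2 and 3) and 1 for Sagunja-tang (replicate 3). The vehicle group had 3 libraries with 0.1% DMSO, per the sample labels, whereas the series' design text gives 2% DMSO. The files do not settle which is right; the DMSO content of the extract wells is not given there. In all there were 30 libraries in 13 groups, and Sagunja-tang, with 1 library per dose, could not be tested.

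BMP ligands bind paired type I and type II receptor kinases, which phosphorylate SMAD1, SMAD5 and SMAD9; these join SMAD4 and bind the regulatory DNA of target genes. The ID genes are classical targets, and their proteins bind E proteins and keep them off DNA. SMAD6, SMAD7 and BAMBI are targets that damp the pathway in turn. In hepatocytes the same pathway, driven by iron through BMP ligands and the co-receptor hemojuvelin, controls HAMP, which encodes hepcidin, the hormone that blocks iron export through ferroportin.

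The sequences in front of HAMP, ID1, ID3, SMAD6 and BAMBI are shown as a description. Whether they bear on how the genes responded was not tested. Each line gives the 250 bases before the RefSeq start (GRCh38.p14), 5′ to 3′ on the gene's own strand. The windows are chr19:35282278-35282527 (plus strand) for HAMP, chr20:31605039-31605288 (plus) for ID1, chr1:23559502-23559751 (minus) for ID3, chr15:66701986-66702235 (plus) for SMAD6 and chr10:28677271-28677520 (plus) for BAMBI. Capitals mark motif matches on either strand. The motifs are GGCGCC and CAGAC, which SMADs bind, the palindromic SMAD-binding sequence GTCTAGAC, and TTCNNNGAA, the core of STAT sites.
HAMP: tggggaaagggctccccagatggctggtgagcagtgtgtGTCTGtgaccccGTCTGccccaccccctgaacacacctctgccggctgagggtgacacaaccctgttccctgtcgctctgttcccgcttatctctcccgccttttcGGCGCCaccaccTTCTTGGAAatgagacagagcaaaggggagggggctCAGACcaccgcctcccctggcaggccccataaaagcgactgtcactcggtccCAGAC
ID1: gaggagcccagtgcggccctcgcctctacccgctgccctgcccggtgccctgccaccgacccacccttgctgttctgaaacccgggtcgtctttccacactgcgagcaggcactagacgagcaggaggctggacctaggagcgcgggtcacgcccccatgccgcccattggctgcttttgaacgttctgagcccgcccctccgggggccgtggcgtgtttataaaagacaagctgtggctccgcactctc
ID3: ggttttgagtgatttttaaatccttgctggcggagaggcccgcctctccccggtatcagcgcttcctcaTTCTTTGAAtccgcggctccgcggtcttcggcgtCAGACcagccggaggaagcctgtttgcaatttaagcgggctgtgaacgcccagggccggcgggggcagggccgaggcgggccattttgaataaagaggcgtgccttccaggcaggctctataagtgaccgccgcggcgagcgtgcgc
SMAD6: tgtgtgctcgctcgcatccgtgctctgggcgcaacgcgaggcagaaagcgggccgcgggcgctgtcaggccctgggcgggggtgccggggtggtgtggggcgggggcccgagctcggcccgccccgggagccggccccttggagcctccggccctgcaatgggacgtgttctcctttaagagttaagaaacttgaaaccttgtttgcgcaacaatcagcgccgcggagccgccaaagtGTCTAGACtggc
BAMBI: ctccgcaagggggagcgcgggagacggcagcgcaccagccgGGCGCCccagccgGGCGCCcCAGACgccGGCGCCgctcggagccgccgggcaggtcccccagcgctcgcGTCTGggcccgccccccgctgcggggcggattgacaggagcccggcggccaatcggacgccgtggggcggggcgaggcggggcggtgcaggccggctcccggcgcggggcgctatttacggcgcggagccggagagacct
The HAMP window held 1 GGCGCC, 1 TTCNNNGAA match (read TTCTTGGAA) and 4 CAGAC matches. In human HAMP this stretch is known to hold a BMP-responsive element and a STAT3 site. The BAMBI window held 3 GGCGCC and 2 CAGAC matches, the SMAD6 window 1 GTCTAGAC, the ID3 window 1 CAGAC and 1 TTCNNNGAA, and the ID1 window no match; the known BMP-responsive elements of ID1 lie further upstream. Across 35116 RefSeq windows of the same length, 16.4% held GGCGCC, 38% held CAGAC, 0.2% held GTCTAGAC and 6.6% held TTCNNNGAA. Of the genes not shown, ID2 and SMAD9 had no match in their windows. ID4 had CAGAC, SMAD7 had CAGAC in some of its windows, and BMP4 had CAGAC and GGCGCC in some of its windows. These letter matches are a description of the windows only. In the GRCh38 gene annotation all 10 genes are protein-coding; HAMP (ENSG00000105697) spans chr19:35280716-35285143, ID1 (ENSG00000125968) chr20:31605283-31606515 and ID3 (ENSG00000117318) chr1:23557918-23559794. The HAMP and ID3 spans begin upstream of the RefSeq start, so the HAMP and ID3 windows lie inside them. The ID1, SMAD6 and BAMBI windows overlap the start of their gene spans in part. The antisense gene ID2-AS1, which overlaps ID2, had 0 to 12 counts per library.

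Library totals ran from 21570416 to 37707232 estimated counts. All 8 hepatocyte markers on the list used reached at least 1 CPM (counts scaled to library size) in every library. The library of Sibjeondaebo-tang low replicate 3 stood apart: its 12 fibroblast markers summed to 40.4 CPM, against 6.75 to 11.1 CPM in the other 29 libraries, with COL1A1 at 8.29 CPM. The share of counts from mitochondrial genes was 17.2 to 19.4% in Sibjeondaebo-tang high, 14.9 to 16.9% in Palmul-tang high and 15.4 to 16.7% in Samul-tang high. It was 15.7 to 19.7% in Sibjeondaebo-tang medium, 14.9 to 16.9% in Palmul-tang medium and 11.2 to 12.9% in Samul-tang medium. In vehicle it was 12.4 to 14.5%. The part of this share in the results was not tested. The titles place all libraries in batch E, but the library codes carry separate prefixes for vehicle, for Samul-tang with Sagunja-tang, and for Palmul-tang with Sibjeondaebo-tang. What the prefix stands for is not given, so an extract effect and a prefix effect cannot be told apart in any comparison with vehicle, or between Samul-tang and the larger formulas at 1 dose; doses of 1 formula share a prefix. All extract groups are compared with the same 3 vehicle libraries, so those comparisons are not independent. The labels do not say that replicates came from separate cultures, so p-values measure the spread between these libraries.

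**Figure D1:**
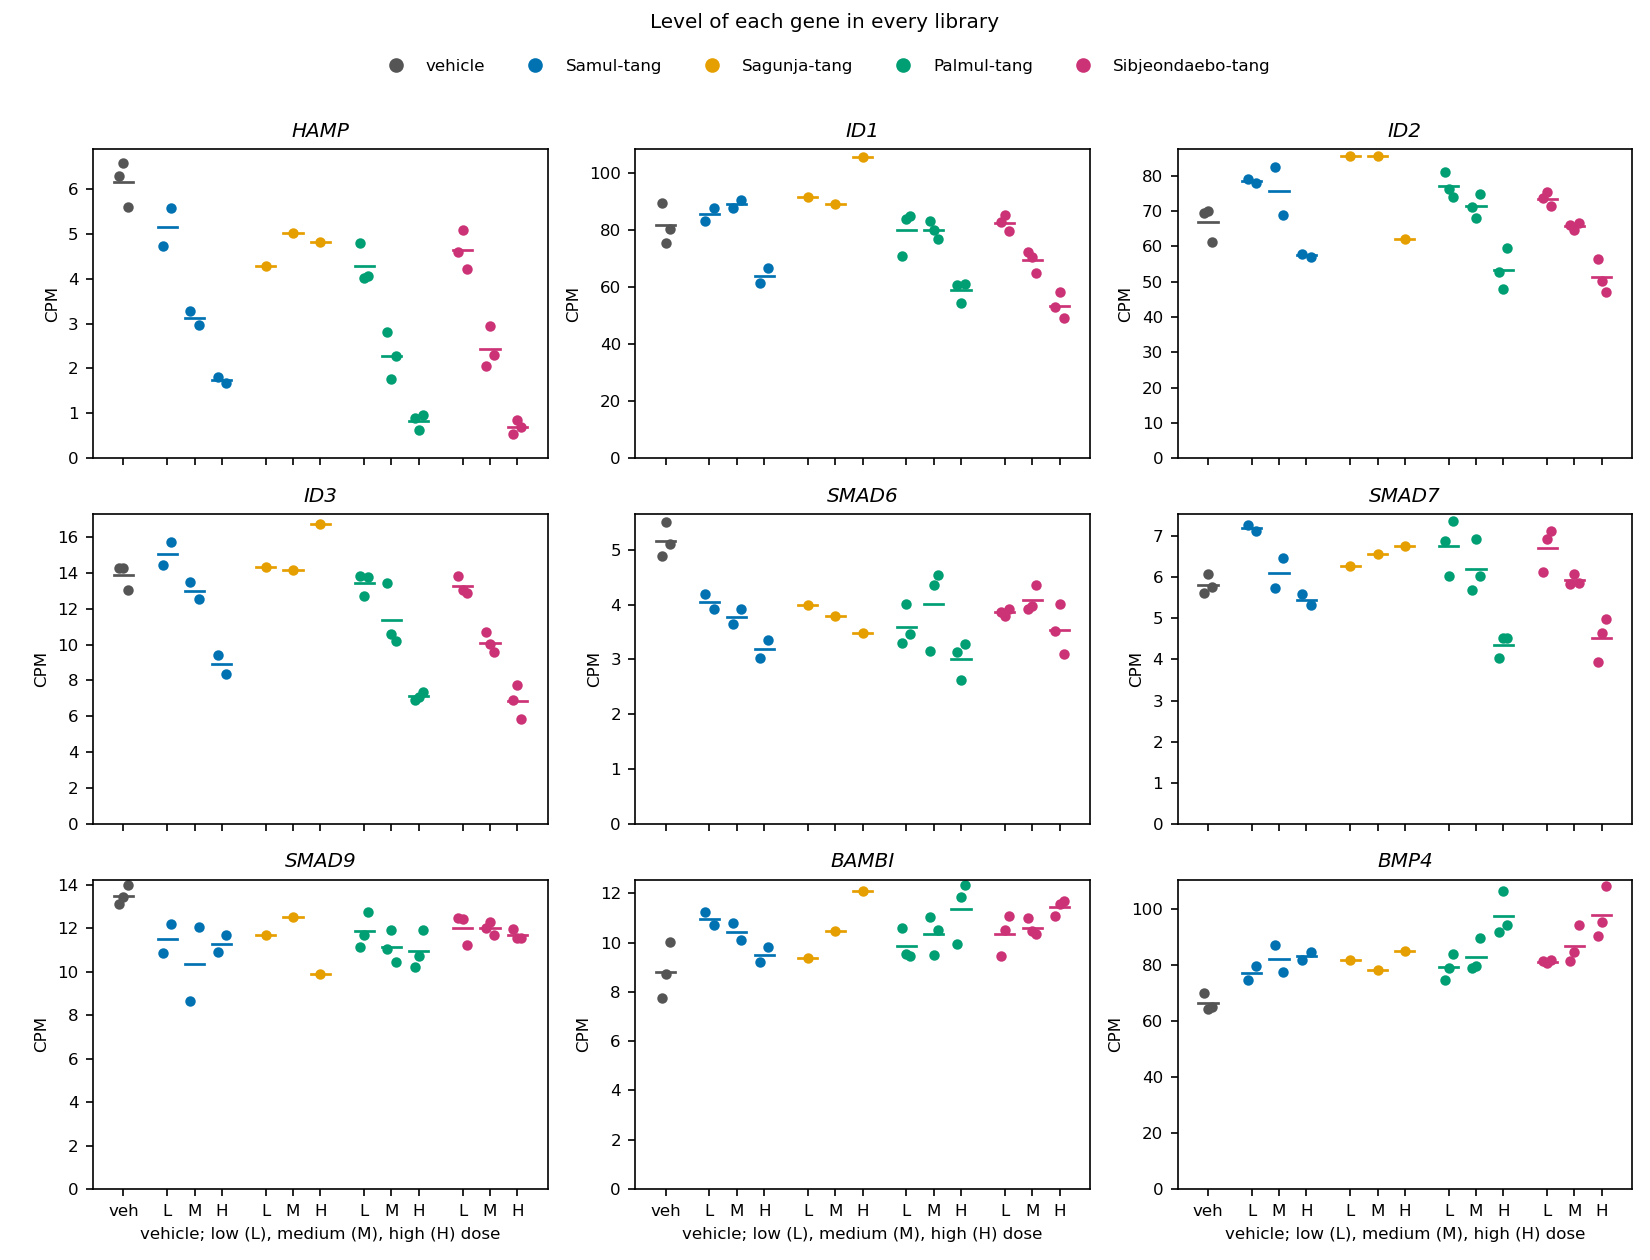
Level of each gene (CPM, vertical axis from 0) in each of the 30 libraries, by formula and dose, 1 point per library. HAMP is lowest in the high-dose groups of Sibjeondaebo-tang, Palmul-tang and Samul-tang, between 0.538 and 1.81 CPM, against 5.59 to 6.58 CPM in vehicle.

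HAMP was the gene with the widest range. In Palmul-tang it averaged 4.28 ± 0.44 CPM at the low dose, 2.29 ± 0.52 CPM at the medium dose and 0.831 ± 0.19 CPM at the high dose (SD, n = 3 each). In Sibjeondaebo-tang the averages were 4.63 ± 0.44, 2.43 ± 0.46 and 0.697 ± 0.16 CPM from low to high dose (SD, n = 3 each), and vehicle averaged 6.15 ± 0.51 CPM (SD, n = 3). Counts behind these levels were 13 to 30 per library at the high doses of these 2 formulas, 52 to 84 at their medium doses and 150 to 238 in vehicle, so the high-dose levels are the least precise. In such bulk RNA, fewer cells expressing a gene and less RNA per cell cannot be told apart.

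The medium dose was the comparison on which the gene list did not rest, and it asks whether an intermediate amount of extract already moved HAMP. The 3 Palmul-tang medium libraries had 2.81, 1.77 and 2.28 CPM of HAMP, against 6.27, 6.58 and 5.59 CPM in the vehicle libraries. The Sibjeondaebo-tang medium libraries had 2.05, 2.95 and 2.30 CPM, and the 2 Samul-tang medium libraries had 3.28 and 2.98 CPM. Every medium library of these 3 formulas lay below every vehicle library, and also below every low-dose library of its own formula. HAMP fell at the medium dose of Palmul-tang by 1.44 on the log2 scale (SE 0.148, edgeR adjusted p = 2.68e-08). It fell by 1.34 in Sibjeondaebo-tang medium (SE 0.145, edgeR adjusted p = 7.28e-08) and by 0.97 in Samul-tang medium (SE 0.157, edgeR adjusted p = 6.38e-05). These 3 calls held under every alternative tried, with log2 changes between -1.60 and -1.28 in Palmul-tang, between -1.50 and -1.23 in Sibjeondaebo-tang and between -1.05 and -0.90 in Samul-tang.

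The high dose against the low or vehicle libraries is given as description only, with no test, because the list was made with that contrast in view. For HAMP, high against low was -2.36 ± 0.185 in Palmul-tang, -2.70 ± 0.187 in Sibjeondaebo-tang and -1.57 ± 0.184 in Samul-tang (log2 ± SE), within 1 library prefix each. Without Sibjeondaebo-tang low replicate 3 the Sibjeondaebo-tang value was -2.77. High against vehicle was -2.90 ± 0.177, -3.12 ± 0.182 and -1.82 ± 0.169 for the same formulas in that order. Each library of Palmul-tang high and Sibjeondaebo-tang high was below 1 CPM, and both Samul-tang high libraries, at 1.81 and 1.68 CPM, stood between those and every low-dose library.

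In order of group means, HAMP ran from vehicle at the top through Samul-tang low (5.15 CPM), Sagunja-tang medium (5.01 CPM) and high (4.81 CPM), Sibjeondaebo-tang low, Palmul-tang low and Sagunja-tang low (4.28 CPM) to Samul-tang medium (3.13 CPM). Then followed the medium doses of Sibjeondaebo-tang and Palmul-tang, Samul-tang high (1.74 CPM), Palmul-tang high and Sibjeondaebo-tang high. The libraries of Sibjeondaebo-tang low and Palmul-tang low overlapped, as did those of their medium doses and of their high doses. Samul-tang high overlapped neither Palmul-tang high nor Sibjeondaebo-tang high. It did overlap Palmul-tang medium, whose lowest library, at 1.77 CPM, lay under the higher Samul-tang high library, at 1.81 CPM. Vehicle overlapped no extract group, and the closest, Samul-tang low replicate 3 at 5.58 CPM, was just under the lowest vehicle library at 5.59 CPM.

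**Figure D2:**
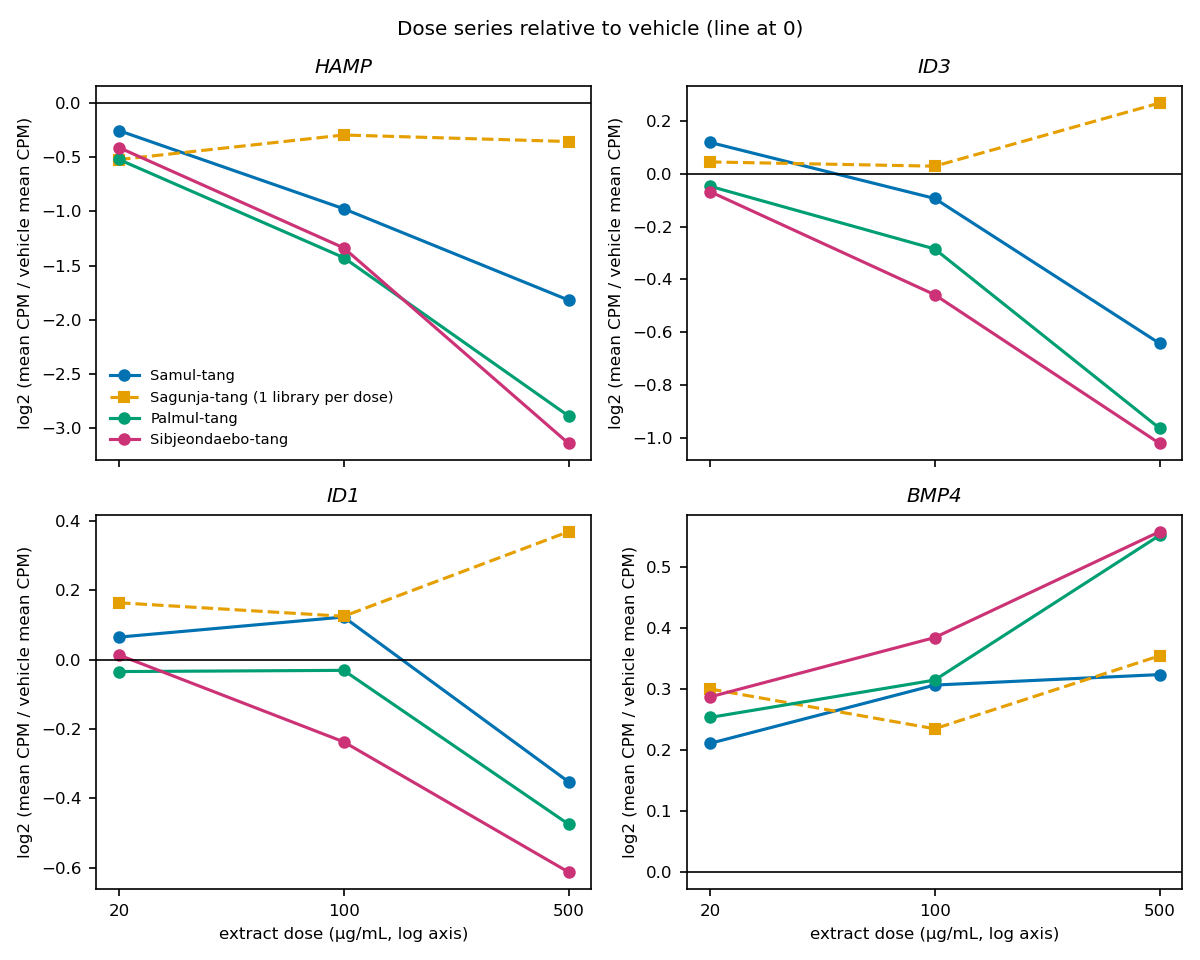
Dose series for single genes: log2 of the group mean CPM over the vehicle mean CPM (vertical axis) against dose in µg/mL, 1 line per formula, with the line at 0 marking vehicle. HAMP and ID3 decline with dose in Samul-tang, Palmul-tang and Sibjeondaebo-tang, while the single Sagunja-tang libraries show no such decline.

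The ID proteins lack a DNA-binding region of their own and sequester E proteins. ID3 had 13.4, 10.6 and 10.2 CPM in the Palmul-tang medium libraries, against 14.3, 14.3 and 13.1 CPM in vehicle. In Sibjeondaebo-tang medium it had 10.7, 10.0 and 9.61 CPM, and in Samul-tang medium 13.5 and 12.5 CPM. Every Sibjeondaebo-tang medium library was below every vehicle library, whereas Palmul-tang and Samul-tang medium overlapped with vehicle. ID3 fell in Sibjeondaebo-tang medium by 0.46 on the log2 scale (SE 0.0886, edgeR adjusted p = 0.000234), and the call held under all 11 alternatives. It fell in Palmul-tang medium by 0.29 (SE 0.088, edgeR adjusted p = 0.0165), but this was lost without vehicle replicate 1 (0.0586) or 2 (0.0746) and without Palmul-tang medium replicate 2 (0.104) or 3 (0.128), all adjusted p-values. In Samul-tang medium the difference was -0.09, with a 95% interval from -0.28 to 0.09 (edgeR adjusted p = 0.549).

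At the high dose ID3 had 6.91, 7.10 and 7.34 CPM in Palmul-tang, 6.91, 7.74 and 5.86 CPM in Sibjeondaebo-tang, and 9.44 and 8.34 CPM in Samul-tang, all below the lowest vehicle library. High against low was -0.92 ± 0.0943, -0.95 ± 0.094 and -0.76 ± 0.107 for these formulas (log2 ± SE). The low-dose libraries lay close to vehicle: 12.7 to 13.9 CPM in Palmul-tang low, 12.9 to 13.8 CPM in Sibjeondaebo-tang low and 14.5 to 15.7 CPM in Samul-tang low.

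ID1, the family member most often used as a readout of BMP signalling, had 72.5, 70.8 and 65.1 CPM in Sibjeondaebo-tang medium, against 89.8, 75.6 and 80.3 CPM in vehicle. The groups did not overlap, and ID1 fell by 0.24 on the log2 scale (SE 0.0689, edgeR adjusted p = 0.0102); the call was lost without vehicle replicate 1 (adjusted p = 0.0905) or Sibjeondaebo-tang medium replicate 3 (adjusted p = 0.0705). Palmul-tang medium had 83.1, 80.3 and 77.0 CPM, a difference of -0.03 with a 95% interval from -0.16 to 0.10 (edgeR adjusted p = 0.798). Samul-tang medium had 87.7 and 90.6 CPM, a difference of 0.12 with an interval from -0.02 to 0.27 (edgeR adjusted p = 0.27). Neither formula passed the test for ID1 at this dose.

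At the high dose ID1 averaged 58.9 ± 3.8 CPM in Palmul-tang, 53.6 ± 4.5 CPM in Sibjeondaebo-tang (SD, n = 3 each) and 64.1 ± 3.8 CPM in Samul-tang (SD, n = 2), against 81.9 ± 7.2 CPM in vehicle (SD, n = 3). High against low was -0.44 ± 0.0697, -0.63 ± 0.0698 and -0.42 ± 0.0839 in the same order (log2 ± SE). The group means ran from 106 CPM in the single Sagunja-tang high library to 53.6 CPM in Sibjeondaebo-tang high, and most neighbours in that order overlapped.

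ID2, which is also expressed in normal liver, passed no medium-dose test. Its medium-dose difference was 0.09 in Palmul-tang (95% interval -0.05 to 0.23, edgeR adjusted p = 0.379), -0.03 in Sibjeondaebo-tang (-0.17 to 0.11, adjusted p = 0.812) and 0.18 in Samul-tang (0.03 to 0.33, adjusted p = 0.106). At the low dose ID2 had 73.9 to 80.9 CPM in Palmul-tang, 71.3 to 75.4 CPM in Sibjeondaebo-tang and 78.0 to 79.0 CPM in Samul-tang, all above the vehicle libraries at 61.3 to 70.1 CPM. At the high dose it had 47.9 to 59.6, 47.1 to 56.5 and 57.0 to 57.8 CPM in these formulas, all below vehicle. High against low was -0.53 ± 0.0712, -0.52 ± 0.0711 and -0.45 ± 0.0856 (log2 ± SE).

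ID4 had 0 to 7 counts per library and at most 0.211 CPM, in Samul-tang low replicate 3. No difference in ID4 could be seen at this depth.

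SMAD6 and SMAD7 encode the inhibitory SMADs. SMAD6, whose protein blocks BMP type I receptors and SMAD1, had 3.15, 4.36 and 4.53 CPM in Palmul-tang medium, 3.91, 3.97 and 4.35 CPM in Sibjeondaebo-tang medium and 3.64 and 3.92 CPM in Samul-tang medium, against 4.88, 5.50 and 5.10 CPM in vehicle. SMAD6 fell by 0.36 (SE 0.12, edgeR adjusted p = 0.0291), 0.34 (SE 0.119, adjusted p = 0.028) and 0.46 on the log2 scale (SE 0.134, adjusted p = 0.0148) in Palmul-tang, Sibjeondaebo-tang and Samul-tang medium. All 27 extract libraries, Sagunja-tang included, lay below all 3 vehicle libraries, so the step was between vehicle and any extract, the same split as the vehicle prefix. The 3 calls depended on single libraries: without vehicle replicate 2 the adjusted p-values were 0.129, 0.129 and 0.0663 in the same order. They were also lost without Palmul-tang medium replicate 1 (a log2 difference of -0.22, adjusted p = 0.207) or vehicle replicate 3 (0.0526) in Palmul-tang, without Sibjeondaebo-tang medium replicate 1 (0.0830) or 2 (0.0837) in Sibjeondaebo-tang, and without Samul-tang medium replicate 2 (0.214) or with the compared groups alone (0.0876) in Samul-tang. With DESeq2 the adjusted p was 0.0658 in Palmul-tang and 0.0649 in Sibjeondaebo-tang.

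SMAD7, whose protein also blocks TGF-beta receptors, passed no medium-dose test. Its medium-dose differences were 0.09 (95% interval -0.10 to 0.29, edgeR adjusted p = 0.542), 0.02 (-0.17 to 0.22, adjusted p = 0.908) and 0.06 (-0.15 to 0.28, adjusted p = 0.747) in Palmul-tang, Sibjeondaebo-tang and Samul-tang. The high-dose libraries had 4.04, 4.51 and 4.52 CPM in Palmul-tang and 3.93, 4.65 and 4.98 CPM in Sibjeondaebo-tang, against 5.61, 6.08 and 5.77 CPM in vehicle. Samul-tang high, at 5.58 and 5.34 CPM, was just below vehicle. The low-dose libraries had 6.04 to 7.36 CPM in these 3 formulas, so high against low was -0.64 ± 0.103 in Palmul-tang, -0.57 ± 0.101 in Sibjeondaebo-tang and -0.40 ± 0.117 in Samul-tang (log2 ± SE).

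SMAD9 encodes a receptor-regulated SMAD that is itself a BMP target. Its 27 extract libraries, at 8.66 to 12.7 CPM, all lay below the vehicle libraries at 13.1, 13.4 and 14.0 CPM, again along the vehicle prefix. SMAD9 fell by 0.28 in Palmul-tang medium (SE 0.0874, edgeR adjusted p = 0.0209) and by 0.39 in Samul-tang medium (SE 0.0976, adjusted p = 0.00459) on the log2 scale. In Sibjeondaebo-tang medium the difference was -0.17 (95% interval -0.34 to 0.00, adjusted p = 0.139). The Samul-tang value rested on replicate 2, at 8.66 CPM against 12.1 CPM in replicate 3: without replicate 2 it was -0.16 (adjusted p = 0.443). The Palmul-tang call was lost without vehicle replicate 2 (0.055) or 3 (0.0690) and without Palmul-tang medium replicate 1 (0.0512) or 3 (0.109), all adjusted p-values.

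BAMBI encodes a receptor lacking the kinase domain, which competes with the type I receptors. It had 11, 10.5 and 10.3 CPM in Sibjeondaebo-tang medium and 11, 9.48 and 10.5 CPM in Palmul-tang medium, against 7.74, 8.71 and 10.0 CPM in vehicle. BAMBI rose by 0.27 on the log2 scale in Sibjeondaebo-tang medium (SE 0.0891, edgeR adjusted p = 0.0225). The call was lost without vehicle replicate 1 (0.141) or 2 (0.0698) or Sibjeondaebo-tang medium replicate 1 (0.0758), all adjusted p-values. In Palmul-tang medium the difference was 0.23 (95% interval 0.05 to 0.40, adjusted p = 0.068), and in Samul-tang medium 0.24 (0.05 to 0.44, adjusted p = 0.077). Vehicle replicate 3, at 10.0 CPM, overlapped with Palmul-tang medium and not with Sibjeondaebo-tang medium.

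BMP4, the ligand on the list, had 79.0, 79.7 and 89.5 CPM in Palmul-tang medium, 81.5, 84.7 and 94.2 CPM in Sibjeondaebo-tang medium and 87.1 and 77.4 CPM in Samul-tang medium, against 70.1, 64.3 and 65.1 CPM in vehicle. BMP4 rose by 0.32 (SE 0.069, edgeR adjusted p = 0.00143), 0.38 (SE 0.0687, adjusted p = 0.000117) and 0.31 (SE 0.0761, adjusted p = 0.00468) on the log2 scale in these formulas. All 27 extract libraries were above all 3 vehicle libraries, again along the vehicle prefix. The Samul-tang call was lost without Samul-tang medium replicate 2 (adjusted p = 0.193) and in a fit of the compared groups alone (adjusted p = 0.0699); the other calls held in all alternatives. At the high dose BMP4 had 91.8, 106 and 94.4 CPM in Palmul-tang and 90.4, 95.2 and 108 CPM in Sibjeondaebo-tang, against 74.8 to 84.0 CPM and 80.5 to 81.6 CPM at their low doses.

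**Figure D3:**
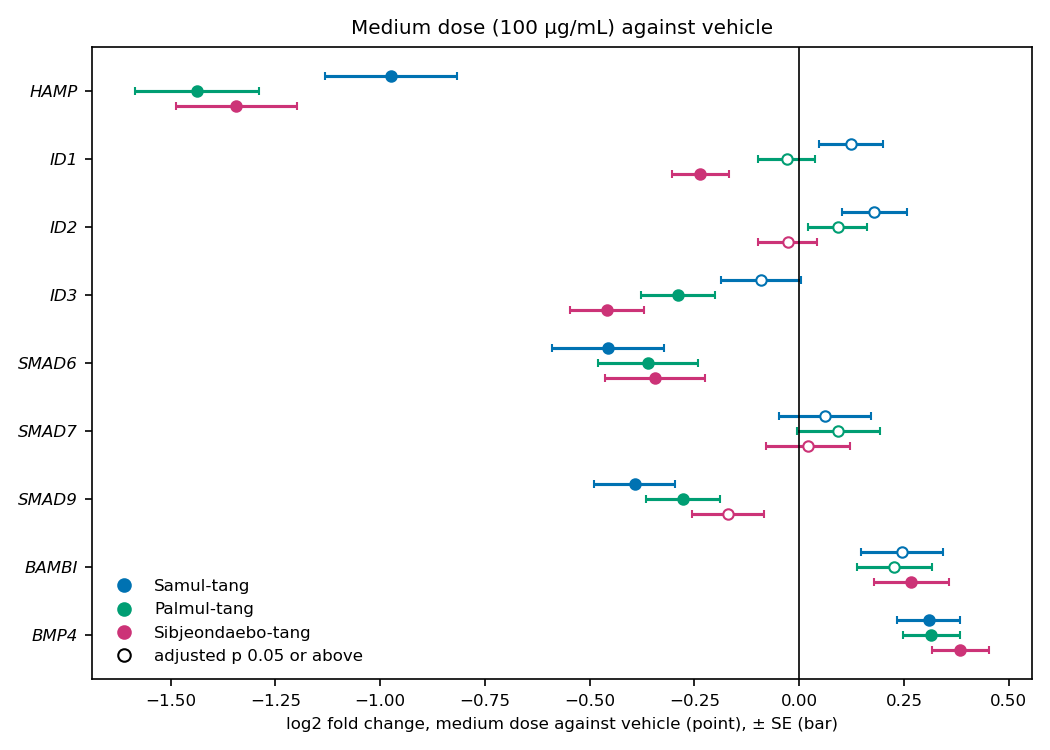
log2 fold change of the 9 tested genes at the medium dose (100 µg/mL) against vehicle for Sibjeondaebo-tang, Palmul-tang and Samul-tang, with bars of 1 SE from the edgeR fit. HAMP is the farthest from 0, at -1.44 in Palmul-tang, and BMP4 and BAMBI are above 0 in all 3 formulas.

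Over the 9 tested genes, 5 passed at the medium dose of Palmul-tang, beside 22.3% of all tested genes: 1 was higher (11.6% of all genes) and 4 were lower (10.8%). In Sibjeondaebo-tang medium 6 passed, beside 30.2% of all genes: 2 were higher (15.3%) and 4 were lower (14.8%). In Samul-tang medium 4 passed, beside 19.8% of all genes: 1 was higher (10.3%) and 3 were lower (9.57%). The median log2 difference of the 9 genes was -0.03, -0.17 and 0.06, against -0.01, -0.01 and -0.00 over all tested genes. Gains and losses stood side by side in each formula, so the list had no single direction at this dose. Without vehicle replicate 2, 2 genes passed in Palmul-tang medium; without its replicate 1 or its replicate 3, 3 passed. In Samul-tang medium, 1 gene passed without replicate 2 and 1 in a fit of the compared groups alone.

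At the high dose against vehicle, given as description, 9 genes passed in Palmul-tang, beside 31.8% of all genes: 2 were higher (16.3%) and 7 were lower (15.6%). In Sibjeondaebo-tang 8 passed, beside 36% of all genes: 2 were higher (19.3%) and 6 were lower (16.7%). In Samul-tang 6 passed, beside 18.5% of all genes: 1 was higher (9.82%) and 5 were lower (8.69%). High against low, the contrast by which the list was chosen, 6 passed in Palmul-tang (6.78% of all genes), 6 in Sibjeondaebo-tang (19.8%) and 4 in Samul-tang (1.42%), which the choice had largely fixed. The lower ones were HAMP, ID1, ID2, ID3 and SMAD7 in the larger formulas, beside 3.03% and 9.44% of all genes, and the same without SMAD7 in Samul-tang, beside 0.715%. BMP4 was the higher gene in the larger formulas, beside 3.75% and 10.4% of all genes. Low against vehicle, 4 passed in Palmul-tang (23.2% of all genes), 3 in Sibjeondaebo-tang (23%) and 1 in Samul-tang (11.3%).

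The larger formulas were compared with each other at each dose to ask whether the herbs that Sibjeondaebo-tang adds to Palmul-tang altered these genes. The medium dose is the test here; the high- and low-dose values are a description, since they entered the choice of the list. None of the 9 genes passed at the high, medium or low dose (edgeR; 0, 1 and 0 genes had an unadjusted p below the threshold, and DESeq2 called 0, 0 and 0). Of all genes 6.47% passed at the high dose, 0.0311% at the medium dose and 0% at the low dose. HAMP had 0.538, 0.863 and 0.691 CPM in Sibjeondaebo-tang high, against 0.905, 0.620 and 0.969 CPM in Palmul-tang high, a log2 difference of -0.22 with a 95% interval from -0.72 to 0.28. For ID3 the difference at the high dose was -0.05 (-0.25 to 0.15), and for ID1 it was -0.14 (-0.28 to 0.00). These intervals bound the differences but do not show that both formulas acted alike. ID1 at the medium dose was the gene with an unadjusted p below the threshold: 72.5, 70.8 and 65.1 CPM in Sibjeondaebo-tang against 83.1, 80.3 and 77.0 CPM in Palmul-tang, without overlap, with a difference of -0.21 (-0.34 to -0.07, edgeR adjusted p = 0.604).

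Each larger formula is also set against Samul-tang at the high dose, across library prefixes. These values, too, are given with no test, since the high-dose libraries entered the choice of the list. The log2 difference of HAMP was -1.30 ± 0.232 in Sibjeondaebo-tang high against Samul-tang high and -1.08 ± 0.225 in Palmul-tang high against Samul-tang high (± SE), and in both cases the libraries did not overlap. For ID3 the differences were -0.38 ± 0.108 and -0.33 ± 0.107, and for ID1 they were -0.26 ± 0.0779 and -0.12 ± 0.0777. As a description, 3 of the 9 genes were past the threshold in Sibjeondaebo-tang high, beside 6.45% of all genes, and 1 in Palmul-tang high, beside 0.187%. The first count was 1 without Samul-tang high replicate 2 or Sibjeondaebo-tang high replicate 3, and the second 0 without either Samul-tang high library or without Palmul-tang high replicate 1 or 2.

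The high-against-low change of HAMP can be set side by side between formulas, each within 1 library prefix, again with no test. Sibjeondaebo-tang minus Samul-tang was -1.14 ± 0.278, Palmul-tang minus Samul-tang -0.79 ± 0.273 and Sibjeondaebo-tang minus Palmul-tang -0.34 ± 0.29 (log2 ± SE). As a description, 1, 0 and 0 of the 9 genes were past the threshold of edgeR in these, beside 1.68%, 0.0124% and 2% of all genes; 2, 2 and 0 had an unadjusted p below it, and DESeq2 called 1, 0 and 0. That gene, HAMP, was not past the threshold once Samul-tang high or low replicate 2, Sibjeondaebo-tang high replicate 1 or 3, or Sibjeondaebo-tang low replicate 2 was left out.

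Sagunja-tang, with 1 library per dose, has no replicate check. Its HAMP level was 4.28, 5.01 and 4.81 CPM at the low, medium and high dose, its ID1 level 91.7, 89.3 and 106 CPM and its ID3 level 14.3, 14.2 and 16.7 CPM. None of these 3 genes was lowest at the high dose, unlike in the other 3 formulas. ID2 was lowest at the high dose, at 85.6, 85.5 and 62.0 CPM from low to high. Its log2 ratios to vehicle at the high dose were 0.37 for ID1, 0.27 for ID3, -0.35 for HAMP and -0.56 for SMAD6. Of the 9 genes, only SMAD6 was past 0.5 in either direction there, beside 15.3% of all genes, and at the low dose only HAMP, at -0.51, beside 11.3%.

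Other genes of the BMP and TGF-beta pathways, 68 in all, were read beside the 10, and 49 of them passed the filter. The genes whose changes are given below were picked by small adjusted p in the medium-against-vehicle or high-against-low tests. Their values in those tests therefore describe picked genes and are no separate test. The ligand genes BMP2 and BMP6, the main hepatic drivers of HAMP, had at most 0.0995 and 0.33 CPM, and the co-receptor gene HJV at most 0.254 CPM, so they were not tested. At the medium dose 13 of the 49 passed in Palmul-tang (7 higher, 6 lower), beside 22.3% of all genes (11.6% higher, 10.8% lower). In Sibjeondaebo-tang 19 passed (7 higher, 12 lower), beside 30.2% of all genes (15.3% higher, 14.8% lower). In Samul-tang 15 passed (3 higher, 12 lower), beside 19.8% of all genes (10.3% higher, 9.57% lower). In Samul-tang medium, 4 of the 49 passed without replicate 2, and 1 passed in a fit of the compared groups alone. Among only the genes whose changes are given below, GDF7, TGFBR1, ACVR2B, SMAD2, SMURF1 and SKIL had lower group means in every extract group than in vehicle. TGFBR2, KLF10 and TCF12 were higher in every extract group. How many of all tested genes split this way was not counted, so the split is not shown to be particular to this pathway. Sagunja-tang and the low doses are included, so the split is the same as that of the vehicle prefix. TGFB1, SMAD3 and CHRD did not split this way.

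Among the ligands, 5 of 14 were tested at the medium dose. Of these, 3, 2 and 1 passed in Palmul-tang, Sibjeondaebo-tang and Samul-tang, beside 22.3%, 30.2% and 19.8% of all genes. GDF7, another BMP family ligand, fell by 0.45 (edgeR adjusted p = 0.00102), 0.47 (adjusted p = 0.000497) and 0.47 (adjusted p = 0.00252), though without Samul-tang medium replicate 2 the last was -0.19 (adjusted p = 0.291). TGFB1, the founding TGF-beta ligand, rose by 0.24 in Palmul-tang medium (adjusted p = 0.00635) and by 0.27 in Sibjeondaebo-tang medium (adjusted p = 0.00151); without Palmul-tang medium replicate 3 the Palmul-tang adjusted p was 0.0702. Its Samul-tang value was -0.06 (adjusted p = 0.638).

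Among 14 tested receptors and co-receptors, 2, 5 and 5 passed in the same order, beside 22.3%, 30.2% and 19.8% of all genes. TGFBR2, the type II receptor for TGF-beta, rose by 0.26, 0.31 and 0.20 on the log2 scale (edgeR adjusted p = 1.94e-05, 7.53e-07 and 0.00133). TGFBR1, its type I partner, fell by 0.47, 0.47 and 0.57 (edgeR adjusted p = 0.00751, 0.00504 and 0.00537). The partners moved in opposite directions. In Samul-tang, the TGFBR1 call was lost without medium replicate 2, at -0.21 (adjusted p = 0.218). ACVR2B, a type II receptor for activins and BMPs, fell in Sibjeondaebo-tang medium by 0.29 (adjusted p = 0.0113) and in Samul-tang medium by 0.55 (adjusted p = 0.000251; 0.0621 without replicate 2).

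Of the 5 SMAD transducers, SMAD2, which carries TGF-beta and activin signals, fell by 0.17, 0.14 and 0.30 in Palmul-tang, Sibjeondaebo-tang and Samul-tang medium (edgeR adjusted p = 0.0148, 0.0399 and 0.000425). Each of these calls was lost in 2 or more alternatives, with adjusted p up to 0.17. Among the medium-dose tests, SMAD3 fell in Samul-tang alone, by 0.30 (edgeR adjusted p = 0.00031). This call was lost in a fit of the compared groups alone, where the 1 other pathway gene that passed was higher. Whether the formulas differed was not tested at that dose.

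Among 12 tested antagonists and negative regulators, 2, 6 and 4 passed, beside 22.3%, 30.2% and 19.8% of all genes. CHRD encodes chordin, which binds BMP ligands outside the cell and keeps them from their receptors. It had 19.6, 19.1 and 16.0 CPM in Sibjeondaebo-tang high, against 39.7, 38.3 and 35.2 CPM in Palmul-tang high, 35.7 and 37.7 CPM in Samul-tang high and 41.7, 42.1 and 42.7 CPM in vehicle. All 3 Sibjeondaebo-tang high libraries lay far below every other library named here. Against Palmul-tang high CHRD fell by 1.05 on the log2 scale (SE 0.0653, edgeR adjusted p = 5.61e-13), within 1 library prefix. It fell in Sibjeondaebo-tang high against low by 1.12 (SE 0.0645, edgeR adjusted p = 5.8e-14), a change more negative than that of Palmul-tang by -1 ± 0.0886 (adjusted p = 5.49e-09) and than that of Samul-tang by -0.95 ± 0.0977 (adjusted p = 1.77e-07). Those differences between formulas held under all 17 and all 15 alternatives. CHRD was picked by its Sibjeondaebo-tang high-against-low value, and these comparisons use the same high-dose libraries, so they are given as description. At the medium dose CHRD fell in Sibjeondaebo-tang by 0.34 (SE 0.0608, edgeR adjusted p = 9.89e-05). SMURF1, a ubiquitin ligase for SMAD1 and SMAD5, fell by 0.34, 0.28 and 0.29 in Palmul-tang, Sibjeondaebo-tang and Samul-tang medium (edgeR adjusted p = 9.66e-05, 0.000517 and 0.00202; 0.119 for Samul-tang without medium replicate 2).

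Among 11 tested other targets, 4, 4 and 2 passed, beside 22.3%, 30.2% and 19.8% of all genes. KLF10, a TGF-beta-induced repressor gene, had 36.8, 41.6 and 43.2 CPM in Palmul-tang medium and 39.8, 39.6 and 48.6 CPM in Sibjeondaebo-tang medium, against 27.2, 27.3 and 29.6 CPM in vehicle, without overlap. It rose by 0.53 on the log2 scale in Palmul-tang medium (edgeR adjusted p = 0.00024) and by 0.61 in Sibjeondaebo-tang medium (adjusted p = 3.69e-05). SKIL, a feedback inhibitor of SMAD complexes, fell by 0.36, 0.39 and 0.49 (adjusted p = 0.00687, 0.00235 and 0.00171; 0.309 for Samul-tang without medium replicate 2). Of the E proteins that ID proteins bind, TCF12 rose by 0.29, 0.34 and 0.18 (adjusted p = 0.000344, 2.91e-05 and 0.037), the last lost in 3 alternatives.

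**Figure D4:**
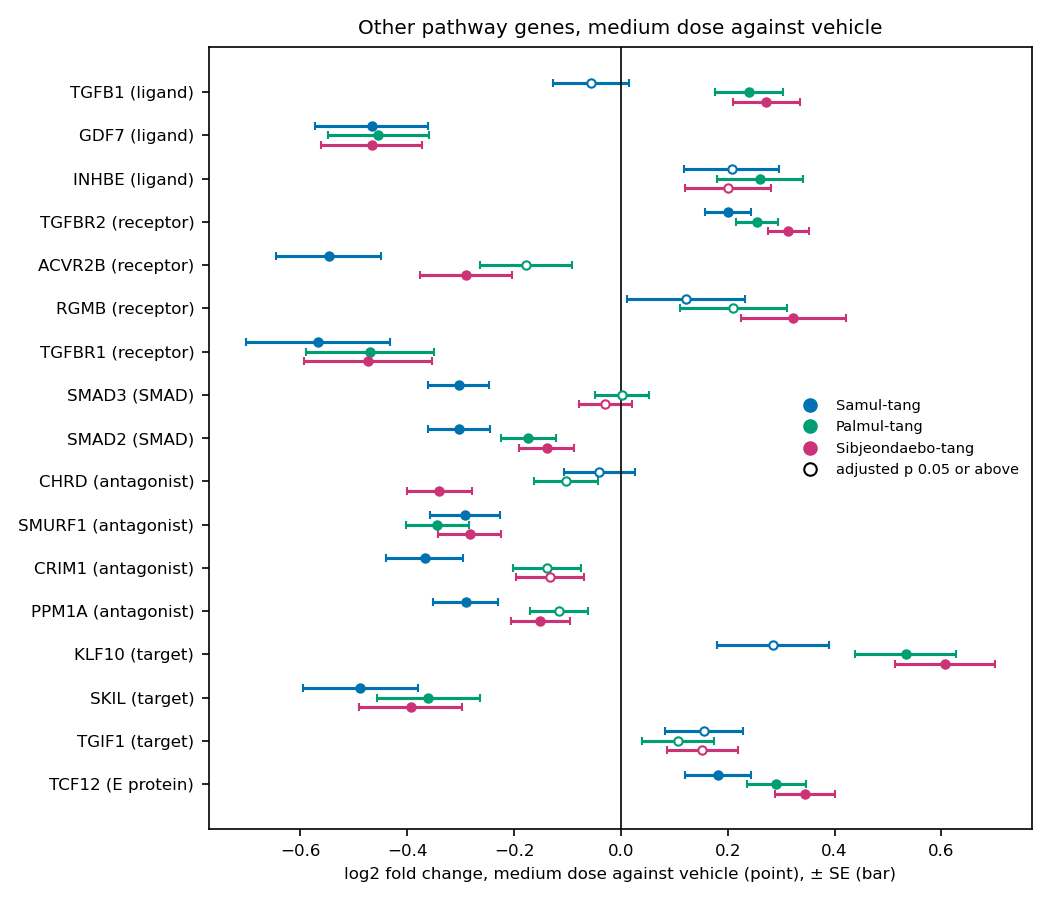
log2 fold change (horizontal axis, bars of 1 SE) of pathway genes outside the list of 10 at the medium dose against vehicle, for Sibjeondaebo-tang, Palmul-tang and Samul-tang. KLF10 stands farthest to the right among the genes drawn, at 0.61 in Sibjeondaebo-tang, and TGFBR1, GDF7 and SKIL lie left of 0 in all 3 formulas.

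Genes whose group means ran most like those of ID1 and ID3 were looked up, as a description. The search took tested genes with a mean log2 CPM of at least 2 and left out clone-style, antisense and similar symbols. It also left out the members of the list, so other ID genes could not appear. Over the 13 group means of log2 CPM, the Pearson correlation with ID1 was 0.95 for SLC26A11, an anion transporter gene, 0.94 for SEMA3B, a secreted semaphorin gene, 0.88 for ZNF552 and FASTK and 0.85 for SLC7A6, an amino acid transporter gene. With ID3 it was 0.94 for SEMA3B, 0.93 for SLC26A11, 0.92 for FASTK, 0.89 for ZNF552 and 0.88 for TGFBI, a TGF-beta-induced matrix gene. The 13 points share libraries, prefixes and depth.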

How the data were processed

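RNA of 30 HepG2 libraries was sequenced as paired ends from a directional kit, per the labels. The deposited table holds estimated counts per gene, which the authors made on hg38 (GRCh38); the submitters' processing notes name RSEM 1.3.3 and STAR 2.7.3a, and for reads Trim Galore 0.6.5 and FastQC 0.11.9. The annotation release and the strand setting of the counting are not given in the sources used here, and 240 columns of other samples were not used. Of the values, 8.56% were not whole, and all were rounded. The 10 genes, the other pathway lists and the tests were chosen with earlier results of these data known.

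CPM levels used TMM factors over all 30 libraries. Tests used edgeR 4.0.16 (limma 3.58.1, R 4.3.3): quasi-likelihood fits of 27 libraries in 10 groups, 17 residual degrees of freedom, after filterByExpr (minimum count 10, minimum total 15), with Benjamini-Hochberg adjustment over 16083 genes and a threshold of 0.05. The SE is the log2 fold change divided by the root of F, and 95% intervals are 1.96 SE. Sagunja-tang ratios used a prior count of 2. Alternatives were DESeq2 1.42.0, median-ratio factors, no filter, only the groups compared, a replicate block, leaving out each library, and a prior count of 0.5. Where a library was left out of a pair, the lone library was assumed to vary like the other groups. No 2 libraries of a group were duplicates: chi-square over degrees of freedom was 2.92 to 30.9 in 24 pairs. The 30.9 belonged to the 2 Samul-tang medium libraries, and the next highest value was 18.8, in Sibjeondaebo-tang medium. The Samul-tang medium libraries thus differed most, while their p-values rest on a spread shared over all 10 groups. Named genes outside the list of 10 were, per sublist, up to 4 with the smallest adjusted p in the medium-against-vehicle or high-against-low tests. Genes were named by identifier (56558 rows matched, 41209 with a symbol). Results of 1 gene that met this rule are not reported here.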

Additional observations from a re-analysis of the deposited data

Results flagged for a closer look

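CHRD had a high-against-low change that differed between formulas: Sibjeondaebo-tang minus Palmul-tang was -1 (edgeR adjusted p = 5.49e-09) and Sibjeondaebo-tang minus Samul-tang was -0.95 (edgeR adjusted p = 1.77e-07). CHRD was picked by its Sibjeondaebo-tang high-against-low value, so these values are a description. All 3 Sibjeondaebo-tang high libraries, at 16.0 to 19.6 CPM, lay below the other high-dose libraries of these formulas, at 35.2 to 39.7 CPM.

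Sagunja-tang went the other way from the other 3 formulas in 4 genes, a difference that was not tested because it has 1 library per dose. Its high-against-low log2 ratio was 0.2 for ID1, 0.22 for ID3, 0.1 for SMAD7 and 0.16 for HAMP.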

How the results depend on the processing

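No called value changed sign under any alternative. Of the counts of calls, 221 stayed within 1.5 times under the alternatives other than leaving out a library and 24 did not; with 1 library left out, 230 did and 74 did not; the cause was not tested unless fewer samples entered. In a fit of the compared groups alone, Samul-tang medium against vehicle gave 1 of the 9 genes, 1 other pathway gene and 261 genes, and Samul-tang low against vehicle 3 of the 9. Palmul-tang high against low gave 5 other pathway genes, Sibjeondaebo-tang against Palmul-tang at the low dose 3 genes, Palmul-tang against Samul-tang high 0 of the 9, and the Sibjeondaebo-tang minus Samul-tang difference 406 genes. With DESeq2, Samul-tang low against vehicle gave 2 of the 9, Sibjeondaebo-tang against Palmul-tang medium 25 genes, and Palmul-tang against Samul-tang high 0 of the 9 and 58 genes. With no filter, Samul-tang low against vehicle gave 3 of the 9, Samul-tang high against low 376 genes, Sibjeondaebo-tang against Palmul-tang 168 genes (medium dose) and 72 genes (low dose), and Palmul-tang against Samul-tang high 261 genes. The differences of high against low then gave 562 genes (Sibjeondaebo-tang minus Palmul-tang), 85 (Palmul-tang minus Samul-tang) and 543 (Sibjeondaebo-tang minus Samul-tang). With median-ratio factors, Samul-tang high against low gave 1 other pathway gene and Palmul-tang minus Samul-tang 1 gene.

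Same-numbered libraries were not seen to deviate together (correlations of deviations from -0.17 to 0.11, in no comparison all over 0.1). The main fit did not pair them. With 2 or 3 libraries per group, this check cannot exclude a shared culture or run. With the replicate block, Sibjeondaebo-tang against Palmul-tang medium gave 26 genes and Palmul-tang against Samul-tang high 46 genes; the other counts stayed within 1.5 times.

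Leaving out 1 library at a time, counts of the 9 genes ran from 2 to 5 in Palmul-tang medium (5 with all libraries), 1 to 4 in Sibjeondaebo-tang low (3), 1 to 5 in Samul-tang medium (4) and 0 to 1 in Samul-tang low (1), all against vehicle. They ran from 2 to 3 in Samul-tang high against low (4), 0 to 1 in Palmul-tang against Samul-tang high (1), 1 to 3 in Sibjeondaebo-tang against Samul-tang high (3) and 0 to 1 in the Sibjeondaebo-tang minus Samul-tang difference (1). Other pathway genes ran from 7 to 16 in Samul-tang high (19) and 4 to 21 in Samul-tang medium (15) against vehicle, and from 4 to 6 in Palmul-tang (10) and 0 to 0 in Samul-tang (2) high against low. All genes called against vehicle ran from 2309 to 3424 in Palmul-tang medium (3594), 2392 to 3187 in Palmul-tang low (3727), 2284 to 3156 in Sibjeondaebo-tang low (3696), 1300 to 2387 in Samul-tang high (2978), 747 to 4675 in Samul-tang medium (3188) and 604 to 1436 in Samul-tang low (1811). High against low they ran from 702 to 827 in Palmul-tang (1091), 2042 to 2582 in Sibjeondaebo-tang (3191) and 85 to 108 in Samul-tang (229). Sibjeondaebo-tang against Palmul-tang gave 545 to 925 at the high dose (1041) and 2 to 30 at the medium dose (5), Palmul-tang against Samul-tang high 2 to 21 (30), and Sibjeondaebo-tang against Samul-tang high 438 to 917 (1038). The differences of high against low gave 211 to 380 (322), 1 to 2 (2) and 164 to 348 (270) in the order above. Precision is lowest for HAMP at the high doses and absent for ID4.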
